A study of Mus musculus with 6 samples.

Results

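The heme genes described here were the 9 genes Hmox1, Hmox2, Blvra, Blvrb, Alas1, Fech, Slc48a1, Flvcr1 and Pgrmc1, chosen by symbol because their products make, break down, carry or bind heme. All 9 were found once each among the 27179 genes of the mouse table. RNA came from B16F10, an established line of mouse melanoma cells labelled as wild type. One group of 3 cultures received 0.01% olive oil (OLO) for 6 h. The other group of 3 cultures received 0.01% ozonated olive oil (OZO), which is olive oil that has reacted with ozone, for the same 6 h. Because both groups received an oil, neither is an untreated control. The labels do not say whether the cultures of a group were set up separately, whereas the study describes its expression data of these cells as coming from independent experiments.

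The study examined how OZO acts on melanoma cells, and RNA was sequenced to find the pathways that it alters. The values analysed here answer a narrower question, namely how strongly each heme gene was expressed across the experiment, because they are the authors' mean over the libraries of both treatments. Such a mean is the level of neither OZO nor OLO, and a difference between the treatments, as well as the spread between cultures, cannot be read from it. No test between groups was therefore made here. The unit is CPM, a gene's reads as a share of the library, scaled to a common library size. The authors' mean was taken on the log2 scale, so each level given here is a geometric mean over the libraries. Where libraries differ, it is lower than their arithmetic mean. Levels of the heme genes are compared with each other as CPM per kilobase of annotated exons, since a longer transcript yields more reads, and other lengths are named where they were used.

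Heme is an iron-holding ring that serves as the cofactor of cytochromes and many oxidases, and that promotes oxidation when it is free. Its synthesis starts and ends in the mitochondrion, with ALAS1 at the entry and ferrochelatase, the product of Fech, inserting the iron. Heme oxygenases open the ring and release iron, carbon monoxide and biliverdin, and biliverdin reductases turn biliverdin into bilirubin. Hmox1 is the oxygenase that is widely known to respond to oxidative stress and to heme itself, whereas Hmox2 is regarded as the constitutive form.

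In the mean over both treatments, Hmox1 had the highest level per kilobase of exons of the 9 genes, and the heme genes as a group lay in the upper part of the expressed genes. Before division by length the 9 genes took 16.3 (Blvrb) to 243 CPM (Hmox1). Per kilobase of exons they ran from 13.1 CPM for Fech to 155 CPM for Hmox1, with a median of 18.6, whereas the median of the 18696 genes with reads and a known exon length was 2.26. Of the 9 genes, 6 lay above the 75th percentile of those genes per kilobase and 3 above the 90th percentile, namely Hmox1, Slc48a1 and Pgrmc1. The other 3 were just under the 75th percentile, with Fech lowest at 72.8%. With coding length in place of exon length, Slc48a1 exceeded Hmox1, with 375 against 280.3 CPM per kilobase, and Blvrb was lowest. Whether Hmox1 held the first place in each treatment, or in 1 of them alone, cannot be told apart in this mean. This is a description without a test, and the genes had been chosen with their expression known.

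**Figure D1:**
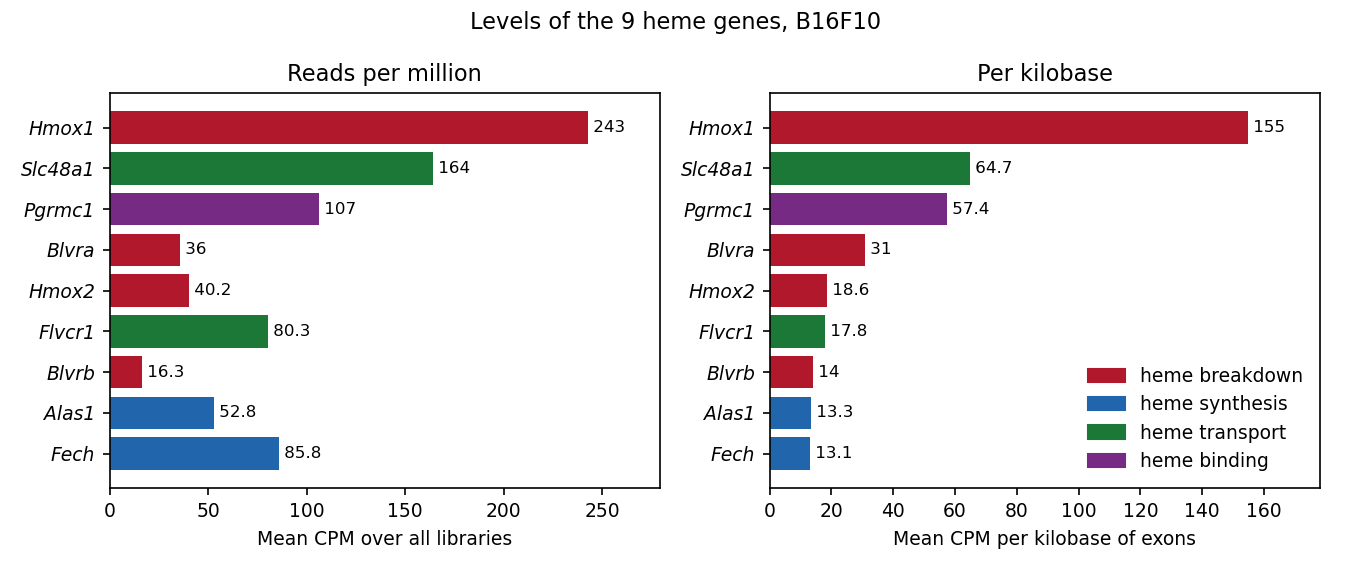
Bars show the authors' mean level of each of the 9 heme genes over all libraries, as CPM on the left and as CPM per kilobase of exons on the right, in the order of the level per kilobase, coloured by role and without error bars because the mean carries no spread between cultures. Only the right panel compares genes, and there Hmox1 leads with 155 CPM per kilobase, followed by Slc48a1 with 64.7 and Pgrmc1 with 57.4, whereas the other 6 genes lie between 13.1 and 31.0.

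The depth behind these levels was the same for all members. The shared lowest value of the 6025 genes without reads corresponds to a geometric mean library size of 19641945 reads, so that 1 CPM stood for 19.6 reads. The next lowest value lay 0.264 above it on the log2 scale, as 1 read in 1 of 6 libraries would give, and 1212 genes had that value within 1e-06. The members rested on 320 (Blvrb) to 4774 (Hmox1) reads per library, as geometric means. The 95% counting half-width of a member's mean level was therefore 0.017 to 0.065 on the log2 scale. It covers counting error only, and the spread between cultures and any effect of the treatment come on top of it.

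Pigment cell markers were abundant in these libraries. Dct and Tyrp1, enzymes of melanin synthesis, averaged 7052 and 5832 CPM, and all 7 listed melanocyte genes had at least 108 CPM. Markers of other cell types had few or no reads. Krt5, of keratinocytes, had no reads, Ptprc, of leukocytes, averaged 0.0448 CPM and Epcam, of epithelial cells, 0.0275 CPM, whereas Pecam1 and Col1a1 averaged 1.19 and 1.67 CPM. The globin gene Hba-a1 averaged 0.0972 CPM and Hbb-bs 0.00783 CPM.

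Among the genes of heme breakdown, the inducible oxygenase exceeded the constitutive one. Hmox1 (Ensembl gene ENSMUSG00000005413) lies on chromosome 8 of GRCm38 from 75093621 to 75100589 on the plus strand, with 5 exons in its RefSeq-linked transcript. Its average log2 CPM in the authors' table was 7.93, or 243 CPM. Per kilobase it reached 155 CPM, the 98.3rd percentile of the genes with reads and a known length. Hmox2 (ENSMUSG00000004070, chromosome 16, 4726361 to 4766742, plus strand) had an average log2 CPM of 5.33, or 40.2 CPM, and 18.6 CPM per kilobase. Per kilobase of exons, the mean level of Hmox1 was thus 8.31 times that of Hmox2 (95% counting interval 8.06 to 8.57). The choice of length moved this ratio beyond that interval, to 6.67 with the longest transcript and 6.59 with coding length. The share of this ratio that belongs to OZO-treated or OLO-treated cells cannot be told apart in a mean over both. The study reports that OZO raised Hmox1 in B16F10 cells, by sequencing and by quantitative PCR. For this gene the mean thus combines groups that the study describes as different. The exons of Hmox2 share 892 bases with exons of Cdip1 on the opposite strand, so reads there could be dropped or assigned to the wrong gene, depending on a strand setting that is not given in the sources used here.

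Both biliverdin reductases were expressed, Blvra above Blvrb. BLVRA is the main biliverdin reductase of adult tissue, whereas BLVRB reduces other biliverdin isomers and flavins. Blvra (ENSMUSG00000001999, chromosome 2, 127070665 to 127097084, plus strand) averaged 36.0 CPM and 31.0 CPM per kilobase. Blvrb (ENSMUSG00000040466, chromosome 7, 27447978 to 27466144, plus strand) averaged 16.3 CPM and 14.0 CPM per kilobase. The exons of both have nearly the same length, 1160 and 1161 bases, and the ratio of Blvra to Blvrb was 2.21 (95% counting interval 2.09 to 2.33). Hmox1, the step before them, had 5.00 times the level of Blvra and 11.0 times that of Blvrb per kilobase of exons. With the longest transcript as length these ratios were 6.29 and 14.3, and with coding length 6.90 and 12.8. Por, which passes electrons from NADPH to the heme oxygenases, averaged 29.5 CPM per kilobase of exons, close to Blvra. With the longest transcript as length, Por stayed at 29.5 whereas Blvra was at 24.6.

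The start regions of these reductase genes are shown because the pair differed in level at nearly equal exon length. Each holds 250 bases before and 50 bases after the annotated start, on the plus strand of GRCm38.p6 and taken from RefSeq, for chr2:127070407-127070706 in Blvra and chr7:27447728-27448027 in Blvrb (the first of its annotated starts). Capitals mark GC boxes, searched as GGGCGG on both strands.
Blvra: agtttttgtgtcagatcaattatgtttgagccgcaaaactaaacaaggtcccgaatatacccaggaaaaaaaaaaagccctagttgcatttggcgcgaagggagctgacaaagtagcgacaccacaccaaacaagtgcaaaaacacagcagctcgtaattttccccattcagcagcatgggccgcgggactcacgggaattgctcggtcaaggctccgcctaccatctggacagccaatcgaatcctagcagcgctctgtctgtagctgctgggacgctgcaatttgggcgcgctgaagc
Blvrb: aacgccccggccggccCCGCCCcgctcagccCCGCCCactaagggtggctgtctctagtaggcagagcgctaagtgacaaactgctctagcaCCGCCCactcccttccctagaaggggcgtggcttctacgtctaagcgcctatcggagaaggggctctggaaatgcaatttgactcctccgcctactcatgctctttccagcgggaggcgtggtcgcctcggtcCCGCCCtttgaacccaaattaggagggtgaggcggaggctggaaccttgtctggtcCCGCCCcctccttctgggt

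The printed Blvrb window holds 5 GC boxes and 63.0% G and C, whereas the Blvra window holds 0 GC boxes and 51.0% G and C. The window of the other annotated Blvrb start, which is not printed, resembles that of Blvra in these measures, with 0 GC boxes and 50% G and C. Which of its starts Blvrb used in these cells was not tested. A GC box is the sequence that SP family factors recognise in many promoters without a TATA box. RefSeq start regions were found for 6 of the 9 genes (Hmox2, Blvra, Blvrb, Alas1, Flvcr1 and Pgrmc1), 10 windows in all, some of which overlap because a gene has nearby starts. Of these 10 windows, 6 held a GC box, against 35.7% of all 32851 windows of the same length. None held a TATA box (TATAAA on either strand), against 13.6% of all windows, and none held an E-box (CACGTG), against 7.15%. The letters TGACNNNGC of the antioxidant response element were found in 3 windows, those of Blvra, Flvcr1 and Pgrmc1, against 12.4% of all. The CCAAT box was found in 2 windows, those of Blvra and Flvcr1, against 37.4% of all. CpG pairs numbered more than the overall median of 7 in 8 of the 10 windows. These letter matches describe the sequence and were not related to the levels by a test.

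The enzymes at both ends of heme synthesis had nearly equal levels per kilobase of exons. Alas1 (ENSMUSG00000032786, chromosome 9, 106233455 to 106248654, minus strand), the entry enzyme outside red cells, averaged 52.8 CPM and 13.3 CPM per kilobase. Fech (ENSMUSG00000024588, chromosome 18, 64452914 to 64490251, minus strand) averaged 85.8 CPM and 13.1 CPM per kilobase over 6571 bases of exons, the longest among the members. Their ratio of 1.02 had a counting interval from 0.991 to 1.06, so these neighbours in the order did not differ beyond counting error. On coding length in place of exon length, Fech was higher and the ratio was 0.405. Exons of Alas1 share 465 bases with the antisense gene 4930500F10Rik.

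The other enzymes of the chain lay on both sides of these 2 genes. Of the 9 listed synthesis genes, 8 averaged at least 1 CPM, and the median of all 9 was 12.7 CPM per kilobase. Per kilobase of exons Cpox, coproporphyrinogen oxidase, was highest at 26.6 CPM, and the level of Fech was 0.491 times that of Cpox. On coding length this order turned, with Fech highest and at 1.09 times the level of Cpox. Alad, the second enzyme of the chain, averaged 4.58 CPM per kilobase, and Uros, uroporphyrinogen synthase, averaged 3.59. Which enzyme over 1 CPM was lowest also depended on the length, since it was Uros by exons, Ppox by the longest transcript (2.60 CPM per kilobase) and Alad by coding length (5.89 CPM per kilobase). Alas2, the form used by red cell precursors, averaged 0.224 CPM, or 4.41 reads per library.

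Of the transporters among the 9 genes, the lysosomal importer Slc48a1 had the higher level, by exons and by coding length. SLC48A1, also named HRG1, brings heme out of the lysosome into the cytosol, and FLVCR1 is known as an exporter of heme and as a choline transporter. Slc48a1 (ENSMUSG00000081534, chromosome 15, 97778520 to 97792692, plus strand) averaged 164 CPM and 64.7 CPM per kilobase, at the 94.8th percentile. Flvcr1 (ENSMUSG00000066595, chromosome 1, 191005847 to 191026158, minus strand) averaged 80.3 CPM and 17.8 CPM per kilobase, at the 78.5th percentile. Per kilobase of exons the ratio of Slc48a1 to Flvcr1 was 3.63 (95% counting interval 3.55 to 3.72), and on coding length, which is only 438 bases in Slc48a1, it was 7.84. Exons of Slc48a1 share 29 bases with Hdac7, and those of Flvcr1 share 809 bases with the antisense gene A230020J21Rik. Flvcr1 and Hmox2 were neighbours in the order by exons, with 17.8 and 18.6 CPM per kilobase, and annotated genes overlap the exons of both. With coding length their order turned, with 47.8 for Flvcr1 and 42.5 for Hmox2.

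Pgrmc1 (ENSMUSG00000006373, chromosome X, 36598206 to 36606079, plus strand) encodes a heme-binding membrane protein that also binds ferrochelatase. It averaged 107 CPM and 57.4 CPM per kilobase, the third highest of the members. Its relative Pgrmc2, which is known to carry heme to the nucleus, averaged 38.1 CPM per kilobase, and the ratio of Pgrmc1 to Pgrmc2 was 1.50 (95% counting interval 1.47 to 1.54) by exons but 1.03 by coding length.

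**Figure D2:**
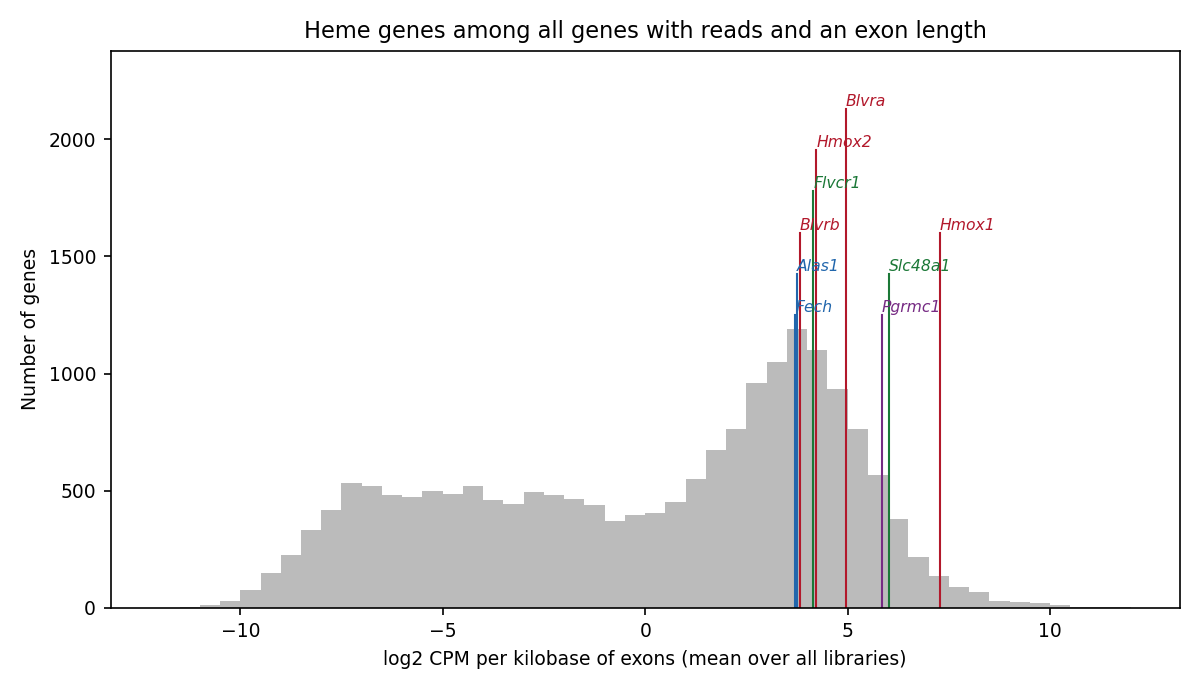
The grey histogram counts the 18696 genes with reads and a known exon length by their mean log2 CPM per kilobase over all libraries, and the coloured lines mark the 9 heme genes by role. Fech, the lowest of the 9, stands at 3.71 and Hmox1, the highest, at 7.28, and all 9 lie to the right of the broad group of weakly expressed genes.

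A wider list of 35 genes of heme metabolism, members included, was used to place the 9 genes. Of the 35 genes, 31 averaged at least 1 CPM, and the median was 14.0 CPM per kilobase. Hmox1 was the highest of the 35 genes by exons, whereas Slc48a1 was highest by coding length. The next by exons were Tmem14c, a mitochondrial porphyrin carrier, with 79.2 CPM per kilobase and Slc25a39, a mitochondrial glutathione carrier, with 64.9. Slc48a1 followed with 64.7, which did not differ from Slc25a39 beyond counting error. The 7 genes of supply and membrane transport for synthesis all exceeded 1 CPM, from 5.98 CPM per kilobase for Slc25a38, the mitochondrial glycine carrier, to 79.2 for Tmem14c. All 5 breakdown genes exceeded 1 CPM, with a median of 29.5 CPM per kilobase.

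Transport and binding genes were the most uneven group. Of its 11 genes, 8 averaged at least 1 CPM, and the levels ran from 0.0684 CPM per kilobase for Flvcr2 to 64.7 for Slc48a1, the lowest and the highest by coding length as well. Abcg2, another heme and porphyrin exporter, averaged 6.10 CPM per kilobase, so that Flvcr1 was 2.92 times as high. The proton-coupled folate and heme carrier Slc46a1 averaged 0.952 CPM per kilobase, and Slc48a1 was 67.9 times as high by exons and 274 times as high by coding length. Hpx, hemopexin, the serum protein that binds free heme, averaged 0.257 CPM per kilobase, whereas its receptor Lrp1 averaged 2.95. The 3 genes of the group under 1 CPM were Hpx with 0.385 CPM, Hebp2, which encodes a heme-binding protein, with 0.369 CPM and Flvcr2, a relative of Flvcr1, with 0.235 CPM.

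All 3 genes listed under heme sensing, a group that also takes in an activator of Hmox1, were expressed. Nfe2l2, which encodes this activator, NRF2, averaged 39.4 CPM per kilobase of exons. Its level was 60.4 with the longest transcript as length and 83.5 with coding length. Bach1, which encodes the repressor that heme removes from the same genes, averaged 15.8 CPM per kilobase. Eif2ak1, the heme-regulated kinase of translation initiation, averaged 21.3 CPM per kilobase.

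**Figure D3:**
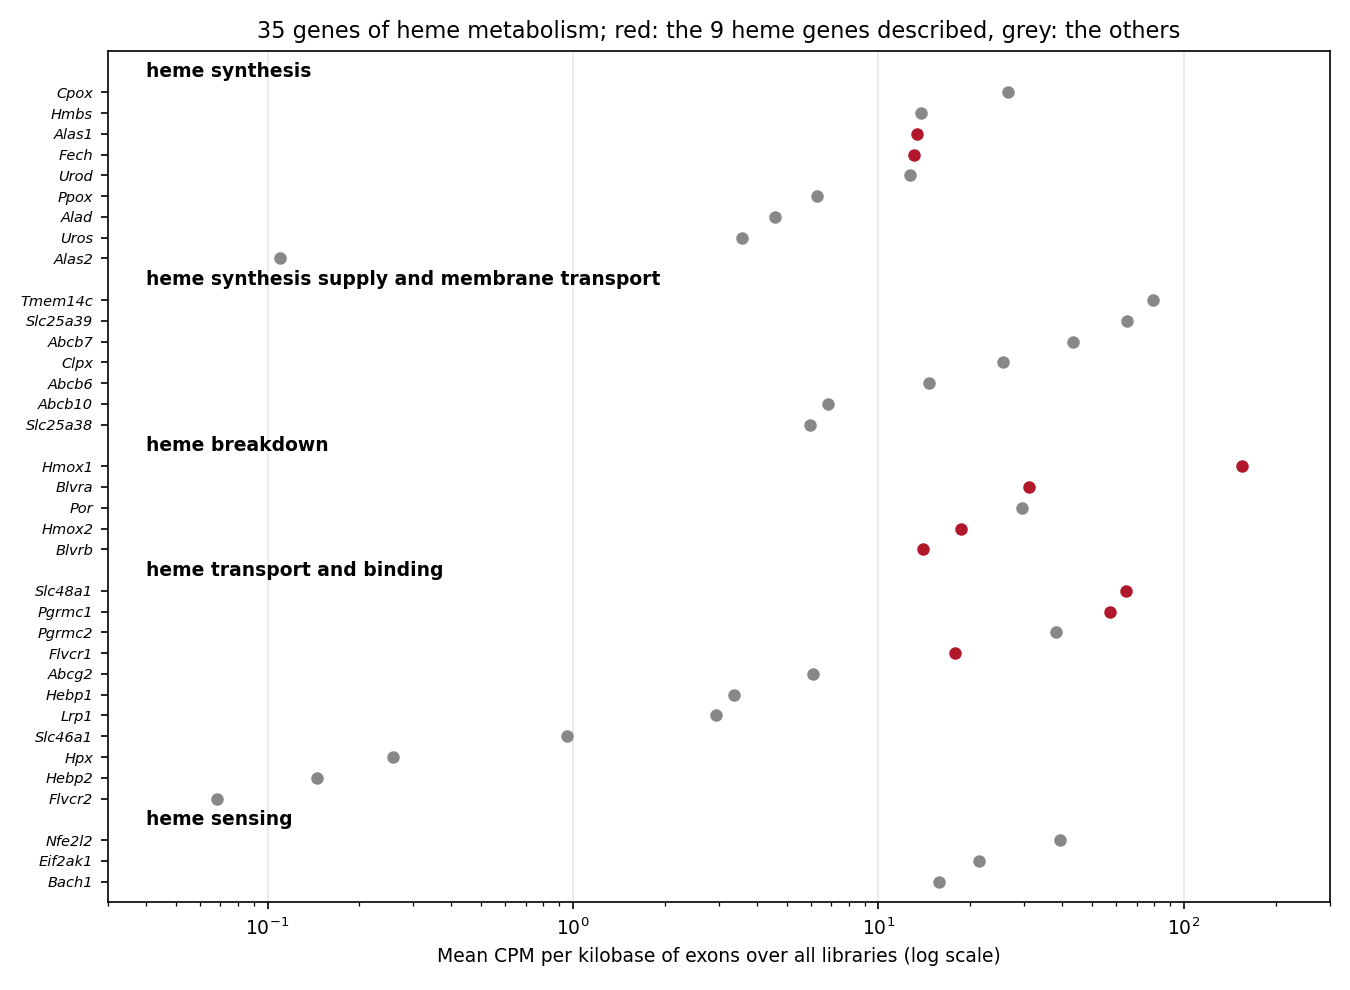
Each point is the authors' mean level of 1 of 35 heme metabolism genes over all libraries, as CPM per kilobase of exons on a log axis, grouped by step, with the 9 heme genes in red and the others in grey. Hmox1 is farthest to the right at 155, whereas Flvcr2 at 0.0684 and Alas2 at 0.110 are farthest to the left.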

How the data were processed

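Total RNA of 6 B16F10 cultures was sequenced with a directional library kit. According to the methods and the submitters' processing notes, the authors aligned reads to mm10 with HISAT2 (version 2.1.0), counted them with featureCounts (v2.1.1) and compared the groups with limma-voom (v3.58.1). Transcripts were estimated with StringTie (v1.3.4d) on a UCSC annotation of mm10. Which annotation, strand setting and filters the counting used is not given in the sources used here.

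The deposited table holds an average log2 CPM per gene, which the authors took over all libraries, and the authors' own comparison of OZO with OLO (fold changes, moderated statistics and p-values). The comparison columns were not used here, and no library was analysed on its own. The planned tests between groups needed values of single libraries, which neither the average nor the comparison gives, so they could not be run.

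The average was returned to CPM after removing the 0.5 reads that voom adds, with the library size taken from genes without reads, and the calculation was tested on simulated data. Percentiles are shares of genes below. Exon length was the union of exons of transcripts in GENCODE M21 (GRCm38) that are linked to RefSeq, available for 88.4% of genes with reads. Counting intervals (95%) were normal approximations over 6 libraries. All 9 members were named, as were the highest, the lowest and related genes of the wider list, and some of the latter were chosen after their values were seen. The members and lists were chosen with earlier results of these data known. Alternatives were other lengths (for genes outside the 9, a later addition made with the values known), the offset left in and percentiles over all genes. Python 3.11.15, numpy 2.4.6, pandas 2.3.3 and matplotlib 3.10.9 were used.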

Additional observations from a re-analysis of the deposited data

How the results depend on the processing

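No paired analysis was possible because each gene has 1 mean over both groups. That also left no way to run another test or normalization, a filter, a pseudocount, a replicate block or a fit without each culture. Leaving voom's offset in changed the 9 levels and 4 ratios per kilobase by a factor of at most 1.002, less than counting error. With the longest annotated transcript as length, the ratio of Hmox1 to Hmox2 was 6.67, that of Alas1 to Fech 1.19 and that of Slc48a1 to Flvcr1 3.26, and Blvrb became the lowest of the 9 genes. With the coding sequence as length, which ignores the untranslated exons that also collect reads, the ratio of Hmox1 to Hmox2 was 6.59, that of Blvra to Blvrb 1.85 and that of Slc48a1 to Flvcr1 7.84, and that of Alas1 to Fech turned to 0.405. Slc48a1 then exceeded Hmox1, with 375 against 280.3 CPM per kilobase. Flvcr1 also passed Hmox2, and Fech rose above Flvcr1, Hmox2 and Blvra. By CPM, without division by length, the members' percentiles ran from 63.7% to 96.3% over the 21154 genes with reads and from 71.7% to 97.1% over all genes of the table, which adds genes at 0 below them. Depth does not limit the order of well separated members, but the spread between cultures is not known here, and neighbours in the order cannot be ranked against it.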
